A study of Homo sapiens with 32 samples.

Results

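The genes of the cell cycle and of DNA replication were followed in 4 human T-cell lines treated with romidepsin, azacitidine or both. The 48 genes were chosen by symbol: 18 act in S phase, when DNA is copied, 25 act in mitosis, when the copies are parted, and 5 govern G1, the stage before S phase. All 48 were found among the 25559 gene symbols of the count tables, and all 48 had enough counts to be tested, with 17801 symbols tested in all. Romidepsin inhibits histone deacetylases. Azacitidine is a cytidine analogue that enters RNA and DNA and traps DNA methyltransferases on DNA. Both HH and H9 derive from cutaneous T-cell lymphoma. TLOm1 derives from adult T-cell leukemia, and PF382 from acute lymphoblastic leukemia of T cells. Each line gave 8 libraries from cells in logarithmic growth, taken at 96 hours: 1 without drug, 1 with romidepsin, 3 with rising azacitidine and 3 with romidepsin on top of each azacitidine dose. Romidepsin was given once, at the start, and azacitidine was given again every 24 hours. PF382 and TLOm1 received azacitidine at 125, 250 or 500 nM, whereas HH and H9 received 50, 125 or 250 nM. The labels of the combinations give no unit for the doses, which were read as nM. The romidepsin dose was 1.25 nM in PF382, 1 nM in TLOm1 and H9, and in HH 1 nM alone but 1.25 nM in the combinations.

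In growing cells, cyclins D2 and D3 switch on the kinases CDK4 and CDK6, which phosphorylate the retinoblastoma protein RB1 and so free E2F factors to turn on the genes of DNA replication. Genes of mitosis are switched on later, by the B-MYB and FOXM1 factors, and are kept low outside G2 and mitosis by the DREAM complex, which holds a DNA sequence called the cell cycle genes homology region (CHR). T cells rely on cyclins D2 and D3 and on CDK6 for the step from G1 into S phase.

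Total counts ran from 16175077 to 32496676 per library, and each condition in a line is 1 library. The 4 lines therefore served as the replicates (n = 4), and p-values measure the spread between libraries pooled over the whole fit, not the spread between cultures of a line. For each of the 32 libraries the most alike library came from the same line. Of 14 T-cell markers, 13 were above 10 CPM (a gene's share of the library's counts, scaled to a common total) in untreated PF382, 11 in H9, 9 in HH and 6 in TLOm1, where CD3D, CD3G, CD8A, CD28 and TRAT1 stayed under 1 CPM in every library. The 8 myeloid markers summed to at most 12.7 CPM in any library, whereas the 8 B-cell markers summed to 351 to 452 CPM in HH and 100.04 to 139.8 CPM in H9, and the 8 epithelial markers to up to 222 CPM in TLOm1.

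S phase and mitosis genes are known to be switched on through different promoter elements, so promoters of both kinds are shown. RefSeq promoters on GRCh38.p14 were at hand for 38 of the 48 genes, from 250 bases before to 50 after the start. That build differs from the GRCh37.p2 named for the counts, so the coordinates below belong to GRCh38.p14 alone. Printed here are the 250 bases before the start, 5′ to 3′ on the gene's strand, of 3 S phase genes and 3 mitosis genes whose results are given further on. Capitals mark an E2F element (TTTCCCGC, TTTGGCGC or TTTCGCGC), a CHR (TTTGAA) or a CCAAT box (CCAAT), read on both strands, with overlapping matches kept.
MCM6 (chr2:135876444-135876693, minus strand): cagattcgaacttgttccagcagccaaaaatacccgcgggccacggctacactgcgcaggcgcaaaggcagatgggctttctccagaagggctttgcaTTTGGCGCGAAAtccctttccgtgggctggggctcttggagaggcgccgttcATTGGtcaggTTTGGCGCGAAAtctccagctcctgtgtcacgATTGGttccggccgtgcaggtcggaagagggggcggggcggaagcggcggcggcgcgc
PCNA (chr20:5126623-5126872, minus strand): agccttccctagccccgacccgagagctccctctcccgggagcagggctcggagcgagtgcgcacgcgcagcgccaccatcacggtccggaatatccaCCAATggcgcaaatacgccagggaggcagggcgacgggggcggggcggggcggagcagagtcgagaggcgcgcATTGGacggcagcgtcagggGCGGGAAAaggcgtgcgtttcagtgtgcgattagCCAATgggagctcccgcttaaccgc
TYMS (chr18:657403-657652, plus strand): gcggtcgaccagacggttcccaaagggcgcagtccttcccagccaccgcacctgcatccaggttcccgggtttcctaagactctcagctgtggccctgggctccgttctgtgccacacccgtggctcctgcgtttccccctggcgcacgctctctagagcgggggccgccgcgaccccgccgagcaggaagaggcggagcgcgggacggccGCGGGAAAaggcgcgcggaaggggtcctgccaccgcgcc
CCNB2 (chr15:59104896-59105145, plus strand): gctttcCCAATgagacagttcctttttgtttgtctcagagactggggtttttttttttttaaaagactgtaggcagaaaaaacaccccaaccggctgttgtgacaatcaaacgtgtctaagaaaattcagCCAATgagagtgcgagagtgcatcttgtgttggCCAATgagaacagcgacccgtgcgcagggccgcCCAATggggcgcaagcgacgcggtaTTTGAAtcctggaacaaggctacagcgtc
BUB1B (chr15:40160819-40161068, plus strand): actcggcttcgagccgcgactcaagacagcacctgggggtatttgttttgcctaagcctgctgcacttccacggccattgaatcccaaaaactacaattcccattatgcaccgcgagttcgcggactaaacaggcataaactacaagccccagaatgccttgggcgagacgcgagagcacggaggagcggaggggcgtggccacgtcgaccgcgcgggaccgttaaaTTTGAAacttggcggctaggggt
PLK1 (chr16:23678639-23678888, plus strand): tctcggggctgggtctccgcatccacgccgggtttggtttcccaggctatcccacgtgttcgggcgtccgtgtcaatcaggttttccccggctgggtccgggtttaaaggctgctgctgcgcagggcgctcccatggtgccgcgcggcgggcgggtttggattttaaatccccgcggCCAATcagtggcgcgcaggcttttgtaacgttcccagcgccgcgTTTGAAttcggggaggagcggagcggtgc
The MCM6 window held 2 CCAAT boxes and 4 E2F matches that overlap in 2 pairs, a TTTGGCGC on the printed strand joined to a TTTCGCGC on the other. PCNA held 1 E2F match and 3 CCAAT boxes, TYMS 1 E2F match, CCNB2 4 CCAAT boxes followed by a CHR, BUB1B a CHR and PLK1 a CCAAT box and a CHR. In the whole windows of 300 bases, 11 of 15 S phase genes and 2 of 19 mitosis genes held an E2F element, against 4.22% of the 11128 promoters of tested genes. A CHR was in 12 of 19 mitosis genes and 0 of 15 S phase genes, against 10.3%, and a CCAAT box in 16 of 19 and 9 of 15, against 36.2%. The windows at hand for 4 G1 genes held 0 of the 3 elements. Whether a window lies at the main start of its gene was not checked, so this 0 covers those windows alone.

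The 4 lines differed most in the G1 genes. All 48 genes differed between lines (edgeR's quasi-likelihood test), as did 98.1% of all genes tested, so the count carries little and the levels are what matters. The highest line's median level over its 8 libraries was a median of 1.97 times the lowest line's for the S phase genes and 1.98 times for the mitosis genes. For the 5 G1 genes that median was 32.8 times. Over all genes tested it was 3.48 times, so the S phase and mitosis genes differed less between lines than the middle gene of all tested. A difference of at least 2 times was found for 24 of the 48 genes and 73.5% of all genes tested. How many of all genes keep the lines apart without overlap was not counted. RB1, the retinoblastoma protein that restrains E2F, ran from 265 to 496 CPM in PF382, from 106 to 124 in TLOm1 and from 64.4 to 89.7 in HH, but from 0.443 to 1.38 CPM in H9, which is 10 to 34 counts in a library. No 2 lines overlapped in RB1. CCND2, or cyclin D2, showed the reverse gap: 0.204 to 6.48 CPM in PF382 against 268 to 355 in TLOm1, 167 to 278 in HH and 176 to 234 in H9.

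CCND3, or cyclin D3, was highest where CCND2 was lowest, at 572 to 848 CPM in PF382, followed by 237 to 296 in H9, 34.2 to 51.8 in TLOm1 and 18.04 to 27.5 in HH. CDK6, the kinase partner of these cyclins, ran from 1283 to 1726 CPM in PF382, 254 to 416 in HH, 140.4 to 224 in TLOm1 and 50.4 to 95.1 in H9. Neither gene overlapped between any 2 lines. CDK4, the other kinase of this step, differed least of the 5, by 1.41 times between the highest and the lowest line, and its exons overlap those of TSPAN31 on the opposite strand, where counts may be shared because the strand setting of the counting is not given in the sources used here.

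**Figure D1:**
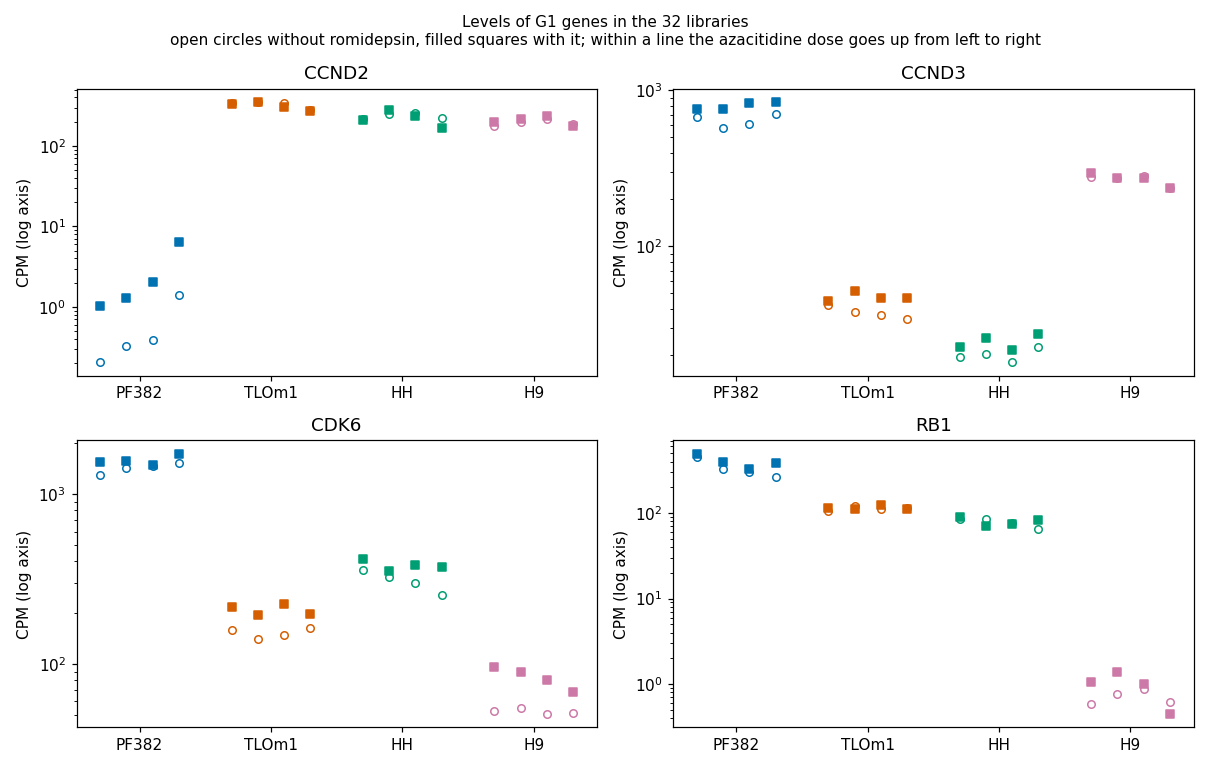
Levels of CCND2, CCND3, CDK6 and RB1 in the 32 libraries, in CPM on a log axis, with the 4 lines side by side and the azacitidine dose going up from left to right within a line. Open circles are libraries without romidepsin and filled squares libraries with it. CCND2 sits under 7 CPM in PF382 and RB1 under 2 CPM in H9, apart from all other lines.

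Among the S phase genes, thymidine kinase TK1 had its lowest level in PF382, at 23.7 to 69.3 CPM, with no overlap with the 110.6 to 213 CPM of the other lines. TYMS, or thymidylate synthase, the other supplier of thymidylate, was highest in PF382, although its range there (410 to 670 CPM) touched that of TLOm1 (137 to 418) and HH. Of the mitosis genes, the centromere motor CENPE stood highest in HH at 246 to 348 CPM, with no overlap with the 68.2 to 171 CPM elsewhere.

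The combination of romidepsin with azacitidine at 250 nM lowered 9 of the 25 mitosis genes and raised none, a dose that all 4 lines received. Of all genes tested, 8.75% were lower and 14.2% higher at the same threshold, an adjusted p under 0.05 in edgeR's quasi-likelihood test over the 4 lines. The 25 mitosis genes had a median log2 change of -0.17, with 19 of 25 below 0, while the median over all genes tested was 0.04. The 18 S phase genes had a median of 0.01, with 1 higher and 1 lower, and none of the 5 G1 genes was called (median 0.07). The lines were not alike in these medians. For the mitosis genes the median log2 change was -0.34 in PF382 with 23 of 25 genes lower, -0.17 in TLOm1 with 16 lower, -0.17 in H9 with 21 lower and 0.02 in HH with 12 lower. In HH it was the S phase genes that lay below 0, with a median of -0.24 and 12 of 18 lower, against 0.02, 0.06 and 0.15 in PF382, TLOm1 and H9. In bulk RNA, fewer cells in a stage of the cycle and less RNA per cell cannot be told apart.

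Markers of other cell types moved in the same comparison. All 8 B-cell markers had a change above 0 (median 1.86, 2 called higher), as did the 5 epithelial markers tested (median 1.63, 2 called higher) and the 4 myeloid markers tested (median 0.62, 1 called higher), while of 14 T-cell markers 2 were higher and 2 lower (median -0.11). Summed over a list, the epithelial markers ran from 0.864 to 103.5 CPM in the 4 untreated libraries, with KRT14, KRT19 and KRT20 at 0 in each, and from 2.78 to 195.8 CPM under the combination. The B-cell sums were 1.91 to 406 and 18.5 to 396 CPM, the myeloid sums 0.153 to 4.85 and 0.498 to 8.04 CPM (MPO and ELANE at 0 in each untreated library), and the T-cell sums 1537 to 2580 and 1254 to 2951 CPM. Each pair of ranges overlapped. The part of these markers in the result was not tested.

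CCNA2, or cyclin A2, which drives S phase and the entry into mitosis, stood at 231, 176, 72.5 and 203 CPM in untreated PF382, TLOm1, HH and H9. Under the combination it stood at 126, 157, 54.2 and 140.3 CPM in the same order, lower in each of the 4 lines. Its log2 change was -0.49 ± 0.09 (± standard error, n = 4, adjusted p = 5.3e-04), so the level fell by 28.9%. BUB1B, the checkpoint kinase BubR1 that holds chromosomes until they are attached, went from 228, 243, 81.6 and 103 CPM to 146, 199.9, 65.2 and 75.5 CPM. Its level fell by 25.2%, the call with the smallest p of the 48 genes (-0.42 ± 0.07, adjusted p = 3.0e-04), and in 4 of 4 lines the level under the combination was below the untreated one.

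CENPE, the motor that carries chromosomes to the spindle's middle, fell by 0.52 ± 0.11 on the log2 scale (adjusted p = 0.00132), from 171, 154, 348 and 92.1 CPM to 95.5, 116, 259 and 68.2 CPM. KIF20A, a kinesin of the last step of cell division, fell by 0.45 ± 0.11 (adjusted p = 0.00533). CDC25C, the phosphatase that activates CDK1, fell by 0.39 ± 0.12 (adjusted p = 0.0192), and CCNB2, or cyclin B2, by 0.32 ± 0.09 (adjusted p = 0.0122). The mitotic kinases AURKA and PLK1 fell by 0.34 ± 0.10 (adjusted p = 0.017) and 0.27 ± 0.08 (adjusted p = 0.0204), and the kinesin KIF23 by 0.27 ± 0.08 (adjusted p = 0.0242). These falls were unequal in size between lines: AURKA differed by -0.76 in PF382 and -0.45 in TLOm1, but by -0.01 in HH and -0.13 in H9.

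Several markers of dividing cells did not pass the test. MKI67, the Ki-67 antigen, had a log2 change of -0.17 ± 0.08 (adjusted p = 0.132), CCNB1, or cyclin B1, of -0.03 ± 0.09 (adjusted p = 0.813) and TOP2A, a topoisomerase that untangles DNA, of 0.14 ± 0.12 (adjusted p = 0.402). CDK1, the kinase that starts mitosis, was at 0.23 ± 0.11 (adjusted p = 0.136), with 3 of 4 lines above untreated. Cyclins A2 and B2 were thus called, and cyclin B1 and CDK1 were not.

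Of the S phase genes, TK1, which salvages thymidine, rose, and TYMS, which makes thymidylate anew, fell. TK1 went from 35.5, 144, 110.6 and 128 CPM to 69.3, 203, 173 and 183 CPM in PF382, TLOm1, HH and H9, a log2 change of 0.67 ± 0.12 (adjusted p = 6.9e-04) seen in 4 of 4 lines. TYMS went from 670, 356, 373 and 225 CPM to 544, 297, 257 and 185 CPM, a log2 change of -0.34 ± 0.11 (adjusted p = 0.0233), also in 4 of 4 lines. The exons of TYMS overlap those of ENOSF1 and the exons of CCNE2 those of INTS8, each on the opposite strand, and BUB1B shares exons with the read-through gene BUB1B-PAK6, so counts of these genes are uncertain. The replication clamp PCNA was at -0.26 ± 0.10 (adjusted p = 0.0559), the helicase subunit MCM2 at 0.07 ± 0.09 (adjusted p = 0.623), E2F1 at 0.07 ± 0.12 (adjusted p = 0.728) and CCNE2, or cyclin E2, at 0.19 ± 0.16 (adjusted p = 0.403). Leaving out 1 line at a time left 8 to 11 of the 48 genes called, and BUB1B, CCNA2, CENPE and TK1 kept their calls in each of those 4 fits. None of the 48 was called when the compared groups alone were fitted (15 had an unadjusted p under 0.05) or without the cell line term (0 had).

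**Figure D2:**
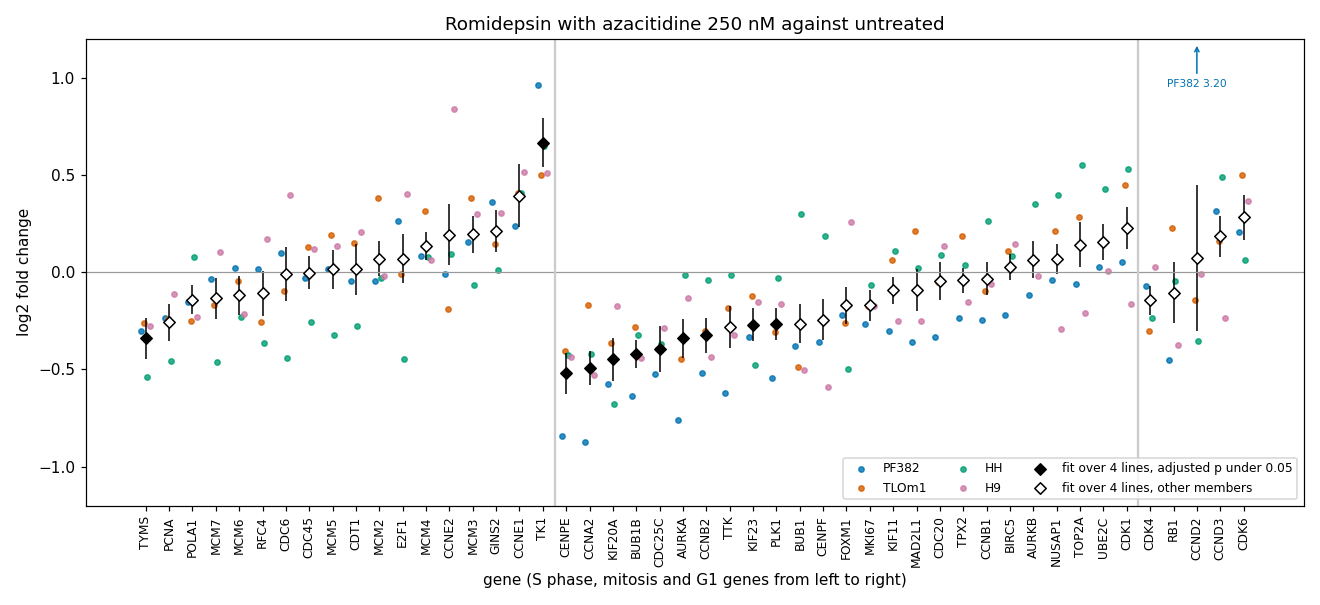
Log2 fold change of the 48 genes under romidepsin with azacitidine at 250 nM against untreated cells, on the y axis, with S phase, mitosis and G1 genes from left to right. Coloured points are the 4 lines, diamonds the fit over the lines with its standard error, filled where the adjusted p was under 0.05, and the arrow marks CCND2 in PF382 at 3.20, beyond the axis. Most mitosis genes lie below 0, with CENPE and CCNA2 lowest.

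Each drug alone called at most 1 gene. Azacitidine at 250 nM raised TK1, by 0.43 ± 0.12 (adjusted p = 0.0437) and in 4 of 4 lines, where 3.85% of all genes tested rose. That call ended in the fits without TLOm1 (adjusted p = 0.218), HH (0.128) or H9 (0.128). CCNE2 was higher in 4 of 4 lines as well, at 0.52 ± 0.16 (adjusted p = 0.0532), most of all in H9, where it went from 15.1 to 34.2 CPM. The other genes named throughout (MCM2, PCNA, TYMS, E2F1, CCNB1, CDK1, PLK1, TOP2A, MKI67, CCND2, CCND3, CDK6 and RB1) lay between -0.28 for RB1 and 0.12 for TOP2A. The median change was 0.11 for the S phase genes, with 4 of 18 below 0, and -0.02 for the mitosis genes, with 13 of 25 below 0, against 0.02 over all genes tested. CCNA2 stood at -0.24 ± 0.09 (adjusted p = 0.106) and BUB1B at -0.23 ± 0.07 (adjusted p = 0.0594), each below untreated in 4 of 4 lines.

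Romidepsin alone called 0 of the 48 genes, with 3 at an unadjusted p under 0.05 and 0 called by DESeq2, and 0.0169% of all genes tested were called, with 5.61% at an unadjusted p under 0.05. Its largest estimate was CDK6 at 0.45 ± 0.12 (adjusted p = 0.333), which was above untreated in 4 of 4 lines and went from 52.6 to 95.1 CPM in H9. CDK1 was at 0.28 ± 0.11 (adjusted p = 0.786), again above untreated in 4 of 4 lines. The remaining genes named throughout lay between -0.11 for PLK1 and 0.17 for RB1.

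Added to azacitidine at 250 nM, romidepsin lowered TYMS and FOXM1 and raised CDK6, where 2.24% of all genes tested fell and 3.43% rose. TYMS fell by 0.36 ± 0.11 (adjusted p = 0.046) and FOXM1, the factor that turns on mitosis genes, by 0.32 ± 0.09 (adjusted p = 0.0469), each in 4 of 4 lines. CDK6 rose by 0.39 ± 0.12 (adjusted p = 0.046) in 4 of 4 lines, although by only 0.03 in PF382. These 3 calls lay near the threshold, and 0 remained without HH (13 of the 48 had an unadjusted p under 0.05), 1 under another scaling of the libraries. PCNA, CCNE2, PLK1, MKI67, CCNB1, MCM2, E2F1, CCND2, TOP2A, RB1, CDK1 and CCND3 gave no call and lay between -0.32 for CCNE2 and 0.28 for CCND3.

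Added to romidepsin, azacitidine at 250 nM raised TK1 by 0.73 ± 0.13 (adjusted p = 6.1e-04) and lowered 6 genes, where 8.92% of all genes tested rose and 5.21% fell. The 6 were CCNA2 (-0.46 ± 0.09, adjusted p = 0.00168), BUB1B (-0.36 ± 0.07, adjusted p = 0.00228), CENPE (-0.41 ± 0.11, adjusted p = 0.0115), KIF20A (-0.36 ± 0.11, adjusted p = 0.0311), CCNB2 (-0.28 ± 0.09, adjusted p = 0.0395) and POLA1, the catalytic subunit of DNA polymerase alpha (-0.31 ± 0.07, adjusted p = 0.0079). Each of the 7 moved the same way in 4 of 4 lines. Of the 7 calls, 2 were lost without H9, 2 without TLOm1, 1 without HH and 1 without PF382, and all 7 were lost with the compared groups alone (12 of the 48 genes at an unadjusted p under 0.05) and without the line term (0 at that level). In HH the combination held romidepsin at 1.25 nM against 1 nM alone, so there the added azacitidine and the higher romidepsin dose cannot be told apart. PCNA was at -0.28 ± 0.10 (adjusted p = 0.0511), and MCM2, TYMS, CCNE2, E2F1, CCNB1, CDK1, PLK1, TOP2A, MKI67, CCND2, CCND3, CDK6 and RB1 lay between -0.27 for RB1 and 0.18 for CCNE2. These comparisons share libraries with the one against untreated cells, so they are not separate evidence.

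The combination did not depart from the sum of the log2 changes of the separate drugs by a called amount for any of the 48 genes, and 0% of all genes tested were called. By edgeR's test 0 of the 48 had an unadjusted p under 0.05, as did 3.35% of all genes tested, and DESeq2 called 0. The departures leaned below 0 for 42 of the 48 genes, with a median of -0.11 against 0.004 over all genes tested. TYMS departed by -0.28 ± 0.15 (adjusted p = 1), CCNA2 by -0.22 ± 0.13 and TK1 by 0.31 ± 0.18. With errors of that size, departures like these were not detectable with 4 lines. The romidepsin dose difference in HH enters this estimate too. MCM2, PCNA, CCNE2, E2F1, CCNB1, CDK1, PLK1, TOP2A, MKI67, CCND2, CCND3, CDK6 and RB1 lay between -0.34 for CCNE2 and 0.14 for CCND3.

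Across the azacitidine doses, 21 of the 48 genes fell with each doubling of the dose within a line and none rose, with libraries with and without romidepsin fitted together. Of all genes tested, 7.56% fell and 11.4% rose. The 21 were 9 of 18 S phase genes, 11 of 25 mitosis genes and CDK4, and 46 of the 48 slopes were negative. The median slope was -0.10 log2 units per doubling for the S phase genes, -0.10 for the mitosis genes, -0.02 for the G1 genes and 0.02 over all genes tested. CCNA2 fell by 0.18 ± 0.04 per doubling (adjusted p = 0.00216), or 11.8%, and BUB1B by 0.15 ± 0.03 (adjusted p = 0.00108). In PF382 without romidepsin CCNA2 stood at 202, 188 and 148 CPM at 125, 250 and 500 nM, and in TLOm1 at 175, 150.3 and 120.1 CPM. In H9 it stood at 203, 181 and 178 CPM at 50, 125 and 250 nM, and in HH at 68.1, 68.1 and 60.5 CPM.

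Among the S phase genes, the helicase subunits MCM6 and MCM2 fell by 0.13 ± 0.03 (adjusted p = 0.00427) and 0.13 ± 0.04 (adjusted p = 0.0165), PCNA by 0.15 ± 0.04 (adjusted p = 0.00695) and POLA1 by 0.13 ± 0.03 (adjusted p = 0.00528). TYMS fell by 0.13 ± 0.05 (adjusted p = 0.0461), a call lost under other scalings of the libraries (adjusted p = 0.0602 and 0.0664). MCM3, MCM4, MCM7 and the clamp loader subunit RFC4 fell as well. Among the mitosis genes, KIF20A fell by 0.17 ± 0.05 (adjusted p = 0.0116), CENPE by 0.16 ± 0.04 (adjusted p = 0.00501), the checkpoint genes MAD2L1 by 0.15 ± 0.04 (adjusted p = 0.00914) and TTK by 0.15 ± 0.04 (adjusted p = 0.0172), CCNB2 by 0.13 ± 0.03 (adjusted p = 0.00916), PLK1 by 0.13 ± 0.04 (adjusted p = 0.0182) and KIF23 by 0.12 ± 0.03 (adjusted p = 0.0086). BUB1 and the spindle motor KIF11 completed the 11. CDK1 was at -0.11 ± 0.04 (adjusted p = 0.0579), CCNB1 at -0.09 ± 0.04 (adjusted p = 0.0927) and MKI67 at -0.06 ± 0.04 (adjusted p = 0.284). No slope was called for TK1 (-0.01 ± 0.05, adjusted p = 0.935), CCNE2 (0.01 ± 0.06), E2F1 (-0.02 ± 0.04), TOP2A (-0.01 ± 0.04), CCND2 (0.03 ± 0.13), CCND3 (0.00 ± 0.03), CDK6 (-0.02 ± 0.04) and RB1 (-0.08 ± 0.05). Without PF382 the CCND2 slope was -0.14 and was called (adjusted p = 0.0184).

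Azacitidine at 500 nM was given to PF382 and TLOm1 only, in 4 libraries. Without these libraries 2 of the 21 slope calls were left, BUB1B at -0.09 per doubling (adjusted p = 0.0424) and MCM6 at -0.10. That fit has fewer libraries and a shorter dose range in PF382 and TLOm1, so a lost call there does not show a lost slope. Without TLOm1 6 genes fell and without PF382 8, against 22 without HH and 23 without H9. In the TLOm1 library with both drugs at 500 nM, the median log2 change from untreated was -0.78 for the mitosis genes and -0.56 for the S phase genes, and 25 of 25 mitosis genes were lower. In the matching PF382 library these medians were -0.50 and -0.30. Azacitidine alone at 500 nM gave -0.42 for mitosis genes in PF382 and -0.31 in TLOm1, with S phase medians of 0.05 and -0.25. TYMS in TLOm1 went from 356 CPM untreated to 292 CPM at 500 nM and to 137 CPM with romidepsin added, and PCNA from 301 to 211 and 154 CPM. The all-gene medians in those 4 libraries lay between 0.004 and 0.07.

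At lower doses without romidepsin the S phase medians lay above 0. Their median log2 change from untreated was 0.30 in TLOm1 at 125 nM, with 1 of 18 genes lower, and 0.16, 0.12 and 0.11 in HH at 50, 125 and 250 nM. In H9 it was 0.13, 0.16 and 0.22 at those doses. In PF382 it was nearer 0, at 0.03 with 7 of 18 lower at 125 nM and 0.08 at 250 nM. The mitosis genes were above 0 at the lower doses in HH (0.11, 0.10 and 0.09) and H9 (0.08, 0.05 and 0.06) as well, and below 0 at 125 nM in PF382 (-0.05) and TLOm1 (-0.01). These are single libraries and carry no test.

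**Figure D3:**
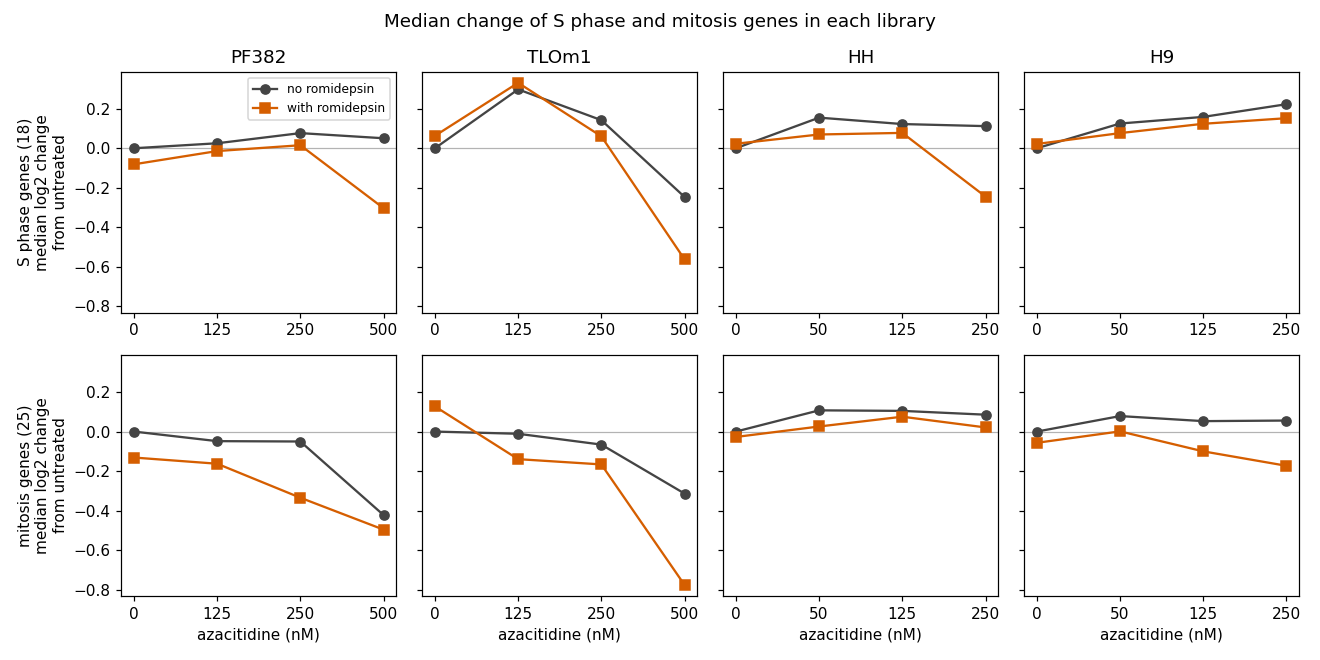
Median log2 change from the untreated library of the same line (y axis) against the azacitidine dose in nM, evenly spaced (x axis), for the 18 S phase genes in the top row and the 25 mitosis genes in the bottom row. Grey circles are libraries without romidepsin and orange squares libraries with it, 1 library per point. The lowest points are PF382 and TLOm1 with both drugs at 500 nM, at -0.50 and -0.78 for the mitosis genes.

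The slopes with and without romidepsin did not differ by a called amount for any of the 48 genes (0% of all genes tested were called, 0 of the 48 by DESeq2), and 1 of the 48 had an unadjusted p under 0.05 by edgeR's test, as did 5.51% of all genes tested. With romidepsin 10 genes fell with the dose, where 3.52% of all genes tested fell, and without it 0 did, where 0.944% fell. At an unadjusted p under 0.05 there were 13 of the 48 and 16.7% of all genes tested. The 10 were BUB1B, CCNA2, KIF20A, KIF23, MCM2, MCM6, MCM7, PCNA, TYMS and CDK4. The differences between the slopes of MCM2, PCNA, TYMS, CCNE2, E2F1, CCNB1, CDK1, PLK1, TOP2A, MKI67, CCND2, CCND3, CDK6 and RB1 lay between -0.16 ± 0.09 for TYMS and 0.10 ± 0.26 for CCND2.

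**Figure D4:**
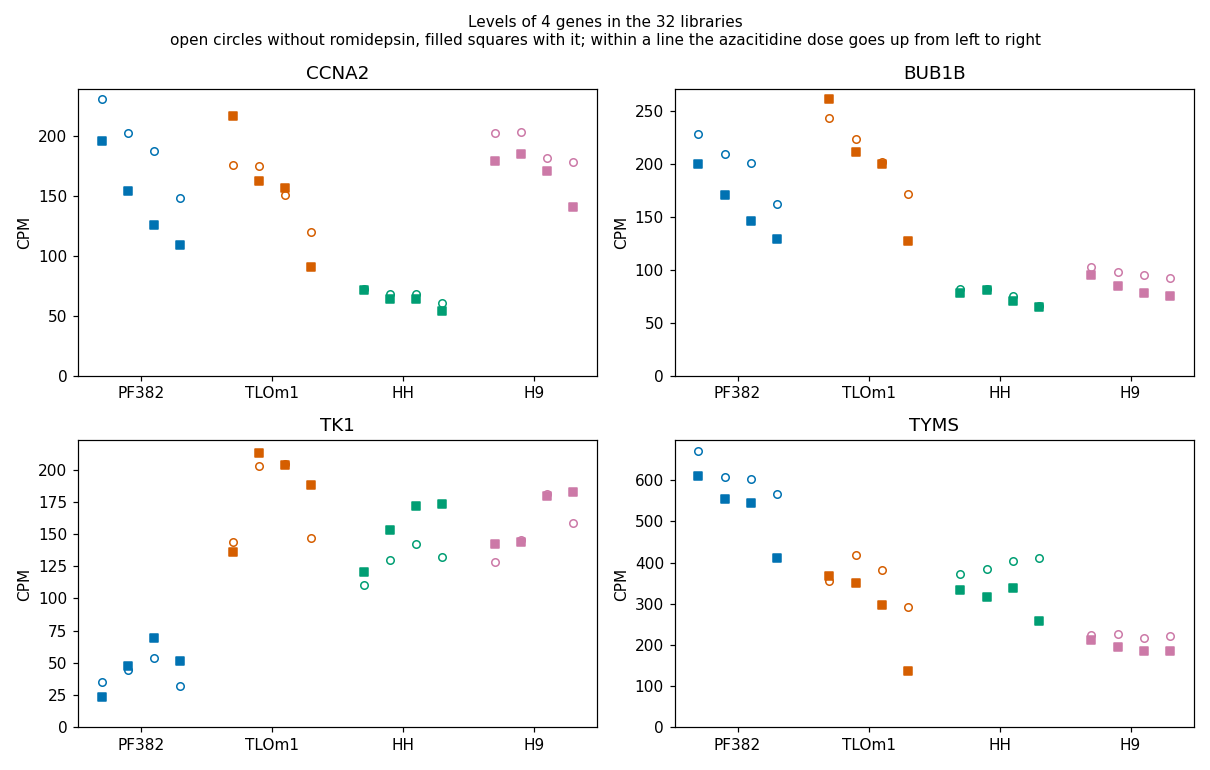
Levels of CCNA2, BUB1B, TK1 and TYMS in the 32 libraries, in CPM, with the 4 lines side by side and the azacitidine dose going up from left to right within a line. Open circles are libraries without romidepsin and filled squares libraries with it. CCNA2 in PF382 goes down from 231 CPM untreated to 109 CPM with both drugs at 500 nM, and TK1 is lowest in PF382.

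Romidepsin had its clearest effect when the 4 libraries with it in each line were set against the 4 without it, matched on azacitidine dose. As the mean of the 4 lines, 23 genes fell and 7 rose, where 18.5% of all genes tested fell and 20.7% rose. The falls were 15 of 25 mitosis genes and 8 of 18 S phase genes, with medians of -0.13 and -0.06 against 0.02 over all genes tested. The rises took in 4 of 5 G1 genes, with CCND2 and RB1 each called in PF382 alone of the 4 lines. The libraries of a line count as replicates here, and 3 of the 4 pairs in a line are combinations, so this effect is mostly romidepsin on top of azacitidine. In HH the matching mixes romidepsin at 1 nM and 1.25 nM, and without HH 24 of the 48 genes were called, against 30 with it.

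The mitosis genes with the smallest p were AURKA (-0.20 ± 0.03, adjusted p = 2.5e-05), CDC25C (-0.31 ± 0.06, adjusted p = 1.6e-04), PLK1 (-0.14 ± 0.03, adjusted p = 3.6e-04), KIF20A (-0.21 ± 0.04, adjusted p = 3.7e-04) and BUB1B (-0.17 ± 0.03, adjusted p = 3.9e-04). CENPE (-0.21 ± 0.05, adjusted p = 0.00101) and CCNA2 (-0.18 ± 0.04, adjusted p = 0.00111) followed. MKI67 fell by 0.16 ± 0.04 (adjusted p = 0.00134) and FOXM1 by 0.22 ± 0.05 (adjusted p = 0.00152). Of these 9 falls, that of CDC25C was the largest, where the level fell by 19.5%.

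TYMS fell the most of the S phase genes, by 0.29 ± 0.06 or 18.3% (adjusted p = 0.0012). CCNE2 fell by 0.22 ± 0.06 (adjusted p = 0.00383) and PCNA by 0.12 ± 0.04 (adjusted p = 0.0146), and the PCNA call was lost without the azacitidine dose level 1, 2 or 3 (adjusted p = 0.0594 to 0.153). MCM5 and MCM7, subunits of the replication helicase, fell too, as did CDT1 and CDC6, which load it, and CDC45, which helps to activate it. Against them, MCM3 rose by 0.11 ± 0.02 (adjusted p = 7.97e-04), POLA1 by 0.07 ± 0.03 (adjusted p = 0.0312) and CDK1 by 0.17 ± 0.04 (adjusted p = 0.00237). Without HH the CDK1 call ended (adjusted p = 0.0525). MCM2 (-0.03 ± 0.03), E2F1 (-0.04 ± 0.04), CCNB1 (-0.08 ± 0.03, adjusted p = 0.0671) and TOP2A (0.00 ± 0.04) gave no call.

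Of the G1 genes, CDK6 rose by 0.39 ± 0.04 (adjusted p = 4.5e-08), CCND2 by 0.53 ± 0.05 (adjusted p = 2.2e-07), CCND3 by 0.24 ± 0.03 (adjusted p = 2.7e-06) and RB1 by 0.19 ± 0.07 (adjusted p = 0.0438). CCND2 stood at 2.22 ± 0.18 in PF382 (adjusted p = 1.2e-08), -0.07 ± 0.07 in TLOm1, -0.10 ± 0.07 in HH and 0.06 ± 0.07 in H9, and its effects were unequal (adjusted p = 1.8e-07). RB1 was called in PF382 alone of the 4 lines, at 0.27 ± 0.09 (adjusted p = 0.0206). It stood at 0.02 ± 0.09 in TLOm1, 0.03 ± 0.09 in HH and 0.45 ± 0.25 in H9, where it had 10 to 34 counts a library. Unequal effects were not called for RB1 (adjusted p = 0.188). The RB1 call for the mean of the lines was lost in 3 of the 4 fits without 1 dose level (adjusted p = 0.0833 to 0.156). CDK6 in H9 stood at 52.6, 54.8, 50.4 and 51.4 CPM without romidepsin and at 95.1, 90.04, 79.9 and 67.9 CPM with it, at azacitidine 0, 50, 125 and 250 nM. Those groups did not overlap, and the change there was 0.66 ± 0.07 (adjusted p = 1.7e-05).

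By line, romidepsin raised 3 and lowered 14 of the 48 genes in PF382, where 19.1% of all genes tested rose and 11.6% fell. It raised 5 and lowered 8 in TLOm1 (17.1% and 15.5% of all genes tested), and raised 6 and lowered 6 in HH (14.0% and 13.7%). In H9 it raised CDK6 alone, where 3.64% of all genes tested rose. The genes of smallest p in PF382 were CCND2, CCND3, PLK1, AURKA, CCNA2, BUB1B, CCNE1, KIF20A, CENPE, CCNE2, RB1 and MCM4. In TLOm1 they were CDK6, CCND3, MCM3, MKI67, BUB1, TYMS, CDK1, CDT1, CCNE1, FOXM1, PLK1 and CCNB2, and in HH CDK6, CCND3, CDK1, POLA1, AURKB, KIF20A, CDC25C, FOXM1, MCM5, CDT1, MCM3 and TYMS. Of the genes named throughout, those without a call lay between -0.22 (TYMS) and 0.21 (CDK1) in PF382, -0.25 (CCNE2) and 0.03 (MCM2) in TLOm1, -0.19 (CCNE2) and 0.06 (MCM2) in HH, and -0.20 (TYMS) and 0.45 (RB1) in H9. The effects themselves were unequal between lines for 9 of the 48 genes (33.0% of all genes tested), namely MCM3, CCNE1, CCNA2, CDK1, AURKB, PLK1, CCND2, CCND3 and CDK6. CCNE1, or cyclin E1, fell in PF382 by 0.39 ± 0.09 (adjusted p = 0.00277) and rose in TLOm1 by 0.29 ± 0.09 (adjusted p = 0.0218), with unequal effects at adjusted p = 0.00244. CDK1 rose in HH by 0.33 ± 0.08 (adjusted p = 0.00468) and in TLOm1 by 0.26 ± 0.08 (adjusted p = 0.0184), and was at -0.13 ± 0.08 in H9.

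PLK1 fell in PF382 by 0.31 ± 0.05 (adjusted p = 1.5e-04) and in TLOm1 by 0.16 ± 0.05 (adjusted p = 0.0245), and was at -0.02 ± 0.05 in HH and -0.06 ± 0.05 in H9. CCNA2 fell in PF382 by 0.41 ± 0.08 (adjusted p = 4.9e-04) and was at -0.04 ± 0.08 in TLOm1. AURKB, a kinase of chromosome attachment, rose in HH by 0.25 ± 0.07 (adjusted p = 0.00849). TYMS fell in TLOm1 and HH, by 0.41 ± 0.12 (adjusted p = 0.0184) and 0.34 ± 0.12 (adjusted p = 0.048), and unequal effects were not called for it. Leaving out 1 dose level at a time left 2 to 18 genes with unequal effects.

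**Figure D5:**
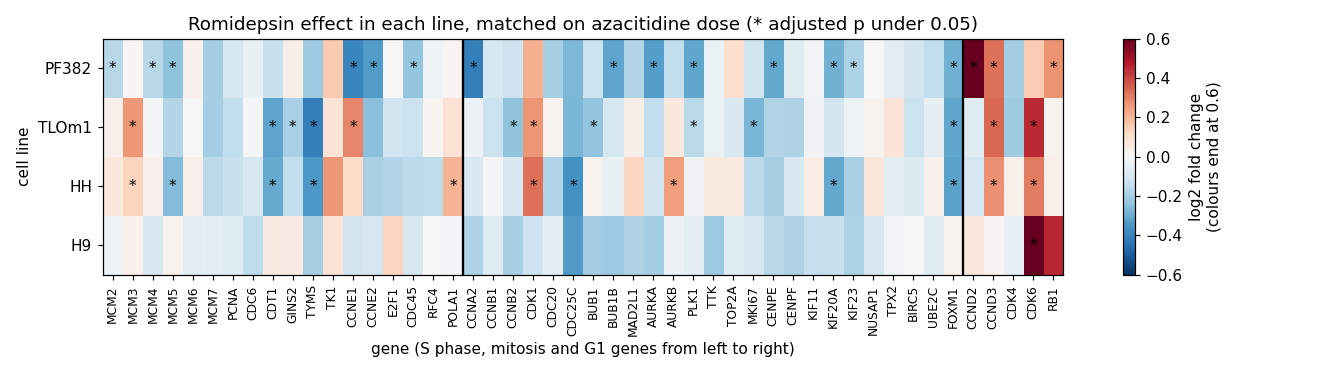
Romidepsin effect on the 48 genes (x axis, with S phase, mitosis and G1 genes from left to right) in each of the 4 lines (rows), as a log2 fold change matched on azacitidine dose. Red is higher and blue lower with romidepsin, colours end at 0.6, and stars mark an adjusted p under 0.05. PF382 carries 17 stars and H9 1, for CDK6.

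CCND2 in PF382 was the largest change of the 48 genes. Its counts there were 5 untreated, 24 with romidepsin, 9, 10 and 39 with azacitidine at 125, 250 and 500 nM, and 34, 53 and 180 with romidepsin added to those doses. The 4 libraries with romidepsin ran from 1.03 to 6.48 CPM and those without it from 0.204 to 1.39 CPM, so they overlapped only through azacitidine at 500 nM. With both drugs at 500 nM the level was 31.7 times the untreated one (13.4 to 98.9, an exact 95% interval for counting error only), and with romidepsin alone 5.05 times (1.89 to 16.9). The romidepsin effect in PF382 was 2.22 ± 0.18 (adjusted p = 1.2e-08), while in TLOm1, HH and H9 it was -0.07 ± 0.07, -0.10 ± 0.07 and 0.06 ± 0.07. Even the highest PF382 level stayed far below the 167 CPM that was the lowest in the other lines. In the fit over lines the combination at 250 nM gave 0.07 ± 0.38 for CCND2 (adjusted p = 0.914).

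Set against the 2 libraries of a line without azacitidine, the 6 with it at any dose raised TK1 and CCNE1 and lowered POLA1, CCNA2, BUB1B, CENPE and TTK as the mean of the lines, where 17.1% of all genes tested rose and 10.5% fell. TK1 rose by 0.46 ± 0.09 (adjusted p = 7.9e-04) and CCNE1 by 0.34 ± 0.08 (adjusted p = 0.00429). CCNA2 fell by 0.31 ± 0.09 (adjusted p = 0.00926), CENPE by 0.29 ± 0.08 (adjusted p = 0.009998) and BUB1B by 0.27 ± 0.07 (adjusted p = 0.00743). POLA1 fell by 0.25 ± 0.07 (adjusted p = 0.00693) and TTK by 0.23 ± 0.08 (adjusted p = 0.0277). Without the highest dose of each line 20 genes were called, 11 of the 18 S phase genes higher among them, and without the middle dose 1. The shares of all genes tested in those fits are not given here, so the counts cannot be set against them. As for romidepsin, the libraries of a line count as replicates in the azacitidine effect. MCM2, PCNA, TYMS, CCNE2, E2F1, CCNB1, CDK1, PLK1, TOP2A, MKI67, CCND2, CCND3, CDK6 and RB1 lay between -0.15 for PCNA and 0.48 for CCND2 (adjusted p = 0.0672).

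By line, azacitidine raised 1 gene and lowered 2 in PF382 (5.94% and 2.39% of all genes tested) and lowered 8 in TLOm1 (7.67%). These tests too take the libraries of a line as replicates. By edgeR's test 0 were called in HH (5.87% of all genes tested) and 0 in H9 (5.86%). At an unadjusted p under 0.05 there were 5 in HH (20.1% of all genes tested) and 3 in H9 (20.7%), and DESeq2 called 2 in each. In PF382 RB1 fell by 0.51 ± 0.12 (adjusted p = 0.0107): it stood at 453 and 496 CPM without azacitidine and between 265 and 397 CPM with it, with no overlap. TK1 rose there by 0.73 ± 0.19 (adjusted p = 0.0190) and TTK fell by 0.49 ± 0.15 (adjusted p = 0.0428). The 8 genes lower in TLOm1 were AURKA (-0.46 ± 0.13, adjusted p = 0.0134), POLA1, CENPE, TTK, BUB1B, KIF20A, KIF23 and BUB1. AURKA alone had unequal effects between lines (adjusted p = 0.0407, where 10.7% of all genes tested had), at 0.08 ± 0.13 in HH and 0.16 ± 0.13 in H9. Without the middle dose the 3 PF382 calls and the 8 TLOm1 calls fell to 0, with 6 and 13 of the 48 at an unadjusted p under 0.05.

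Other genes of the same pathways are set here beside all genes tested, of which the combination raised 14.2% and lowered 8.75%. Of 7 inhibitors of cyclin-dependent kinases, 3 rose under the combination at 250 nM and 0 fell: CDKN1A, or p21, by 1.39 ± 0.31 (adjusted p = 0.00314) and CDKN2B, or p15, by 1.98 ± 0.48 (adjusted p = 0.0187) had the smallest p. Of 66 further mitosis genes 2 rose and 8 fell, with the kinetochore gene KNTC1 at -0.51 ± 0.07 (adjusted p = 4.3e-05) and the motor KIF18A at -0.45 ± 0.10 (adjusted p = 0.00289). Of 48 further replication genes 2 rose and 4 fell. The falls among the further mitosis and replication genes were close to the share of all genes that fell, and their rises were below the share that rose. Of the replication genes the 2 of smallest p were both rises, SLBP, the binder of histone messages, at 0.44 ± 0.08 (adjusted p = 6.9e-04) and the histone chaperone ASF1B at 0.37 ± 0.09 (adjusted p = 0.00423).

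Of 20 genes of the E2F, RB and DREAM groups 1 rose and 3 fell, led by TFDP2, a partner of E2F, at -0.79 ± 0.11 (adjusted p = 3.2e-05) and E2F6, a repressing E2F, at 0.53 ± 0.12 (adjusted p = 0.00326). Of 25 DNA damage checkpoint genes 2 rose and 3 fell, led by FANCD2 at -0.42 ± 0.08 (adjusted p = 9.1e-04) and ATR at -0.40 ± 0.08 (adjusted p = 0.0017). Of 21 genes of the APC/C and SCF ubiquitin ligases, which destroy cyclins, 1 rose and 6 fell, led by CDC27 at -0.38 ± 0.08 (adjusted p = 0.00243) and C11orf51, a symbol for an APC/C subunit gene, at -0.41 ± 0.09 (adjusted p = 0.0026). The checkpoint falls were near the share of all genes that fell, and the ubiquitin ligase falls were above it.

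With each doubling of the azacitidine dose, 21 of the 66 further mitosis genes and 14 of the 48 further replication genes fell and 0 rose, led by KNTC1 (-0.14 ± 0.02, adjusted p = 4.8e-05), KIF18A (-0.17 ± 0.04, adjusted p = 0.00161), POLD2 (-0.20 ± 0.03, adjusted p = 1.6e-04) and DTL (-0.14 ± 0.03, adjusted p = 0.00588), where 7.56% of all genes tested fell and 11.4% rose. Of the 7 kinase inhibitors 2 rose, CDKN1A by 0.37 ± 0.10 per doubling (adjusted p = 0.0143) and CDKN2D by 0.14 ± 0.05 (adjusted p = 0.0465). The romidepsin effect over the 4 lines, in which 18.5% of all genes tested fell and 20.7% rose, lowered 36 of the 66 mitosis genes and raised 1, led by SPAG5 (-0.37 ± 0.04, adjusted p = 3.0e-07) and GTSE1 (-0.42 ± 0.05, adjusted p = 1.2e-06). It raised 3 of the 7 inhibitors and lowered 1, with CDKN1A at 0.98 ± 0.12 (adjusted p = 1.4e-05) and CDKN2D at 0.24 ± 0.04 (adjusted p = 4.9e-05). Checkpoint genes were led by 2 rises, CHEK2 at 0.38 ± 0.04 (adjusted p = 8.5e-08) and BTG2, an antiproliferative p53 target, at 1.24 ± 0.14 (adjusted p = 1.4e-06), with 5 of 25 higher, near the share of all genes that rose, and 10 lower. The BTG2 effects were unequal between lines, at 4.34 ± 0.51 in HH and -0.44 ± 0.14 in H9 (adjusted p = 4.2e-06 for unequal effects). CDKN1A was unequal too (adjusted p = 0.00781).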

How the data were processed

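RNA was sequenced in 32 libraries of 4 established T-cell lines. The files, as deposited, hold whole-number counts for each gene symbol, with no scaling by the authors. Per the labels' protocols the RNA was both poly(A) RNA and depleted of rRNA. STAR, DESeq2, limma and GRCh37.p2 are named in the submitters' processing notes, with no role. The counter, and whether it used strand, is not given in the sources used here.

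Counts were fitted with edgeR 4.0.16 (R 4.3.3): TMM scaling, the filter on low counts (minimum 10 in a library, 15 in total), the quasi-likelihood F test, and Benjamini-Hochberg adjustment over the 17801 symbols tested, with calls at an adjusted p under 0.05. All 32 libraries entered each fit. The comparisons at 250 nM used 10 groups of treatment plus a term for the line (residual degrees of freedom 19), which pairs libraries of the same line. The dose slope used the log2 dose centred within a line, with line and treatment class as terms (24). Romidepsin was matched on line and azacitidine dose (12) and azacitidine on line and romidepsin (20). Standard errors are the log2 fold change over the square root of F. CPM used library sizes scaled by TMM, except for the levels and sums of the cell type markers, which used library totals. By its library total, a count of 3 stands at 0.131 CPM in untreated PF382. The fit of the 10 groups was tried on simulated counts of a fixed spread, for the combination at 250 nM against untreated alone. The slope fits and the fits by line were not tried in that way.

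The text names up to 12 called genes of smallest p in each comparison and always MCM2, PCNA, TYMS, CCNE2, E2F1, CCNB1, CDK1, PLK1, TOP2A, MKI67, CCND2, CCND3, CDK6 and RB1, and the 2 genes of smallest p in each further list. Members and lists were chosen with earlier results of these data known. Alternatives were DESeq2 1.42.0, its size factors in edgeR, library totals, no filter, no line term, the compared groups alone, and leaving out each line or dose level. Overlaps between genes were read from GENCODE on GRCh38.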

Additional observations from a re-analysis of the deposited data

Results flagged for a closer look

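Of 102 sets of changes in the 4 lines, 15 had 1 line far from the other 3, by Dixon's test at its 95% critical value. Chance gives about 1 in 20 for a single set. The sets share libraries and genes, so 15 of 102 cannot be set against that rate. CCND2 in PF382 was such a line in 5 comparisons: 2.23 with romidepsin (others -0.03 to 0.15), 0.88 with azacitidine at 250 nM (0.03 to 0.09), 3.20 with the combination (-0.36 to -0.01) and 2.32 for the combination against azacitidine (-0.43 to -0.10). Against romidepsin it was 0.97 (-0.32 to -0.12). RB1 in H9, at 10 to 34 counts a library, stood at 0.85 with romidepsin (0.09 to 0.13) and at -1.30 for the departure from additivity (0.01 to 0.26).

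Under the combination at 250 nM, CENPE was lowest in PF382 at -0.84 (others -0.43 to -0.40), TYMS lowest in HH at -0.54 (-0.30 to -0.26) and MCM2 highest in TLOm1 at 0.38 (-0.05 to -0.02). For the combination against romidepsin, POLA1 stood at -0.40 in TLOm1 (others -0.28 to -0.27), CDK1 at 0.27 in HH (-0.21 to -0.14) and MKI67 at 0.14 in HH (-0.16 to -0.13). E2F1 with romidepsin stood at 0.12 in H9 (-0.11 to -0.07), and CCNB1 departed from additivity by 0.12 in HH (-0.19 to -0.16).

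Romidepsin effects differed between lines for 9 genes, by the F test of equal effects. The largest line effect minus the smallest was 2.32 for CCND2, 0.68 for CCNE1, 0.51 for CDK6, 0.46 for CDK1, 0.40 for AURKB, 0.37 for CCNA2, 0.33 for CCND3, 0.29 for PLK1 and 0.25 for MCM3. For azacitidine it was 0.62 for AURKA.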

How the results depend on the processing

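Of 1684 alternative values of named members, 1510 kept their direction and side of the threshold, 131 lost a call, 21 gained one and 22 changed sign. The cell line pairs the libraries. With no replicate block for line, 0 members were called for azacitidine at 250 nM, for the combination or for the combination against either drug, and 0 had an unadjusted p under 0.05, while CDK6 with azacitidine went to 0.040. With the compared groups alone those 4 comparisons also called 0, with 12, 15, 15 and 12 at an unadjusted p under 0.05 in that order (fewer libraries enter that fit). DESeq2 called 4 for azacitidine at 250 nM, 4 for romidepsin in H9, 6 for azacitidine in PF382, 2 in HH, 2 in H9 and 2 for unequal azacitidine effects. DESeq2's size factors in edgeR gave 2 for azacitidine at 250 nM and 1 for the combination against azacitidine. Library totals gave 1 for that comparison and 1 for azacitidine in HH and in H9. No filter gave 0 for azacitidine at 250 nM (13 unadjusted), 0 for the combination against azacitidine (19 unadjusted) and 4 for azacitidine in TLOm1. For these the cause was not tested.

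Leaving out 1 line called 8 to 11 for the combination, 0 to 2 for azacitidine at 250 nM, 0 to 3 for the combination against azacitidine, 5 to 9 against romidepsin, 6 to 23 for the dose slope and 45 to 48 for differences between lines. Leaving out 1 dose level called 21 to 28 for the mean romidepsin effect, 2 to 18 for unequal effects, and 7 to 22 in PF382, 4 to 16 in TLOm1, 2 to 17 in HH and 1 to 2 in H9. For azacitidine it called 1 to 20 for the mean, 0 to 13 for unequal effects, and 0 to 9 in PF382, 0 to 20 in TLOm1, 0 to 9 in HH and 0 to 3 in H9. Romidepsin alone, additivity and the difference of slopes gave 0 in every alternative run. The shares of all genes tested in these alternative runs are not given here.

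The 2 alternatives that follow were chosen after seeing the data. Without the libraries at 500 nM the dose slope called 2, and TOP2A went to 0.054, MKI67 to 0.024 and CCND2 to -0.10, with CCND2 at -0.18 for the difference of slopes. Without HH the mean romidepsin effect on E2F1 went to 0.0016. Other signs changed in 1 of the fits that leave out a line or dose level, with the cause not tested. For the combination the range was MCM2 -0.032 to 0.10 (-0.032 without TLOm1), CCNE2 -0.030 to 0.31 (-0.030 without H9), TOP2A -0.0044 to 0.26 (-0.0044 without HH) and RB1 -0.24 to 0.054 (0.054 without PF382). For the combination against azacitidine the range was E2F1 -0.14 to 0.099 (0.099 without HH). For the combination against romidepsin the range was CCNE2 -0.077 to 0.32 (-0.077 without H9) and CCNB1 -0.11 to 0.076 (-0.11 without HH). For the dose slope the range was CCNE2 -0.12 to 0.11 (-0.12 without H9), E2F1 -0.085 to 0.053 (0.053 without TLOm1), TOP2A -0.071 to 0.035 (0.035 without TLOm1), CCND2 -0.14 to 0.12 (-0.14 without PF382, adjusted p = 0.0184) and CCND3 -0.035 to 0.031 (0.031 without H9). For the difference of slopes the range was RB1 -0.018 to 0.16 (-0.018 without HH). For the mean romidepsin effect the range was MCM2 -0.043 to 0.020 (0.020 without dose level 3) and E2F1 -0.082 to 0.022 (0.022 without dose level 3). For the mean azacitidine effect the range was PLK1 -0.14 to 0.0029 (0.0029 without dose level 3). Few counts limit CCND2 in PF382 and RB1 in H9.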
